A study of Drosophila melanogaster with 17 samples.

Results

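The proteasome subunit genes of the fly were taken from the count table as the rows whose symbol begins with Prosalpha, Prosbeta or Pros and a digit, or with Rpn or Rpt and a digit. The rule gave 41 of the 13872 genes listed. Of these, 28 are the first copies that bear the plain subunit names, and 13 are second copies marked by a T or an R after the number, or by a letter in the case of Pros28.1A and Pros28.1B. By structure the 41 genes comprised 11 of the alpha ring, 11 of the beta ring, 8 Rpt ATPases and 11 Rpn subunits. Several carry older symbols, so that Pros28.1, Pros25, Pros35 and Pros29 encode alpha subunits (now Prosalpha4, Prosalpha2, Prosalpha6 and Prosalpha3), Pros26 encodes Prosbeta6, Pros26.4 and Pros45 encode the ATPases Rpt2 and Rpt6, and Pros54 encodes Rpn10. The subunits Prosbeta4, Rpt5, Rpn8 and Rpn13 are listed under symbols that the rule does not match and are given separately below.

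The proteasome degrades proteins that carry ubiquitin chains. Its core particle is a barrel of alpha and beta rings, in which the alpha subunits gate the entrance and the beta subunits Prosbeta1, Prosbeta2 and Prosbeta5 hold the proteolytic sites. The regulatory particle sits on the barrel, with a base of Rpt ATPases and large Rpn subunits that unfolds the substrate and a lid of further Rpn subunits that removes the ubiquitin chain. Most subunits are needed in every cell, and in Drosophila many second copies are expressed mainly in the testis.

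The 17 mRNA-seq libraries were each made from a pool of about 200 central nervous systems (CNS) taken from late larvae of the third instar. All larvae carried the elavGAL4 driver, which is active in neurons. The 6 WT libraries also carried an empty UAS-PWIZ insertion, the 7 C24 libraries a UAS hairpin against Smn (SmnRNAi-C24), and the 4 X7/C24 libraries the same hairpin together with 1 chromosome of the deletion Df(3L)SmnX7, which is present in all cells and not in neurons alone. WT_1 to WT_3 and C24_1 to C24_4 formed a pilot round, WT_4 to WT_6 and C24_5 to C24_7 the second round, and X7/C24 was the only genotype of the third round, so that X7/C24 and the third round cannot be told apart. Since whole CNS was used, fewer cells of a type and less RNA per cell cannot be told apart either. The labels name each pool a biological replicate and do not say whether the pools came from separate crosses.

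The libraries held from 7883183 to 28339670 counts, with a median of 18432613. Levels are given in CPM, the count of a gene scaled to a common library total, after TMM scaling against WT_4. Before TMM scaling, a gene with a count of 0 could have had a level of up to 0.106 CPM in the deepest library and 0.381 CPM in the shallowest (3 counts of the total). These bounds, like the intervals given, cover counting error only. Smn, the targeted gene, lay at 65.6, 67.1 and 61.4 CPM in WT_4 to WT_6, at 54.3, 65.6 and 54.3 CPM in C24_5 to C24_7 and at 29.9, 28.9 and 28.8 CPM in X7/C24_1 to X7/C24_3. Its log2 fold change was -0.16 ± 0.10 (SE) in C24 (edgeR adjusted p = 0.741) and -1.15 ± 0.06 in X7/C24 against WT (edgeR adjusted p = 1.05e-05), so the knockdown was not detected in C24 by this test.

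Libraries WT_1, WT_2 and C24_1 stood apart. The summed level of 12 neuronal genes was between 101 and 680 CPM in them, against 6058 to 8512 CPM in the second round, elav itself was at 286, 82.6 and 30.6 CPM against 2002 to 2515 CPM, and the summed level of 9 muscle genes was 1747 to 3330 CPM against 46.5 to 116 CPM. X7/C24_4 held 4621 CPM of the neuronal list, against 8677 to 9465 CPM in X7/C24_1 to X7/C24_3. X7/C24_4 and the pilot libraries were kept out of the tests, following the choice of libraries in the study. By the study's methods, an X7/C24 library was removed for its high level of duplicate reads, and not for a sign of other tissue. Each test compared 3 libraries with 3.

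In the second-round CNS the subunit genes together took 0.616, 0.649 and 0.599% of all counts in WT_4, WT_5 and WT_6, which is 0.621 ± 0.025% (SD, n = 3). For a single library the 95% Wilson interval was narrow, from 0.613 to 0.619% in WT_4. The share was 0.621, 0.746 and 0.580% in C24_5, C24_6 and C24_7 (0.649 ± 0.087%, n = 3) and 0.587, 0.526 and 0.557% in X7/C24_1 to X7/C24_3 (0.557 ± 0.031%, n = 3). The WT and C24 ranges overlapped, and the 3 X7/C24 libraries lay below all 3 WT libraries. The highest of the 9 libraries, C24_6, also had the lowest level of the neuronal list in the second round (6058 CPM), and the part of this difference in the share was not tested. X7/C24_4 was at 0.857%, above every library of the second round. The genes were not tested as a sum, and no p-value is given for the share.

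**Figure D1:**
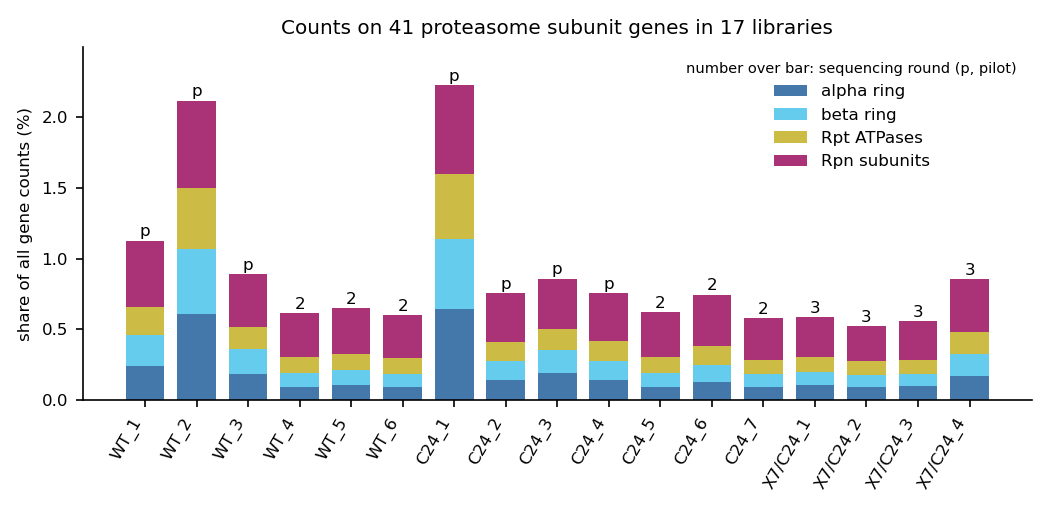
Share of all gene counts (%) that fell on the 41 proteasome subunit genes in each of the 17 libraries, stacked by structural group, with the sequencing round over each bar. WT_2 (2.11%) and C24_1 (2.23%) stand far above the rest, WT_1 follows at 1.13%, and X7/C24_1 to X7/C24_3 lie between 0.526 and 0.587%.

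The first copies were expressed at similar levels for their length. In WT_4 to WT_6 the 27 first copies with counts had a median of 161 CPM per kb of exon, against 19.8 CPM per kb for the 8340 genes at 1 CPM or more, and the lowest of them exceeded 89.0% of those genes. The spread among them was 2.66-fold from the highest to the lowest, and 26 of the 27 lay between 129 and 199 CPM per kb. Of the 26 pairs of neighbours in the order, 25 overlapped between libraries, so most of the order is not resolved. The exception was the step down from Pros45 to Rpt4.

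Among the alpha subunits, Pros28.1 was the highest with 184, 199 and 177 CPM per kb in WT_4, WT_5 and WT_6, and Pros25 the lowest with 130, 144 and 129.9 CPM per kb. Among the beta subunits Pros26 was the highest, with 180.0, 182 and 178 CPM per kb. Prosbeta5, which carries the chymotrypsin-like site, was the lowest of its ring with 135, 151 and 133 CPM per kb. The 6 measured alpha genes therefore spanned 1.38-fold and the 6 beta genes 1.29-fold.

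The Rpt ATPases spanned a wider range. Rpt1 had the highest mean of all subunit genes with 195, 207 and 193 CPM per kb, while Rpt4 lay at 73.0, 76.9 and 74.2 CPM per kb, below every other first copy in all 3 libraries. For 13 members a part of the exons overlaps another gene in the BDGP6 annotation, and read pairs within such overlaps were not assigned by the counting method used. For Rpt4 this was 6.35% of its exon length, and it was more for Rpn9 (15.7%), Pros45 (13.0%), Prosbeta2 (7.93%), Pros26.4 (7.14%) and Prosbeta5 (7.11%). The counts lost in this way are not known, and the part of the overlaps in the levels was not tested. Among the Rpn subunits Rpn5 of the lid was the highest, with 191, 197 and 183 CPM per kb, and Pros54, the ubiquitin receptor Rpn10, the lowest with 131, 138 and 124 CPM per kb. The 10 Rpn genes spanned 1.45-fold.

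**Figure D2:**
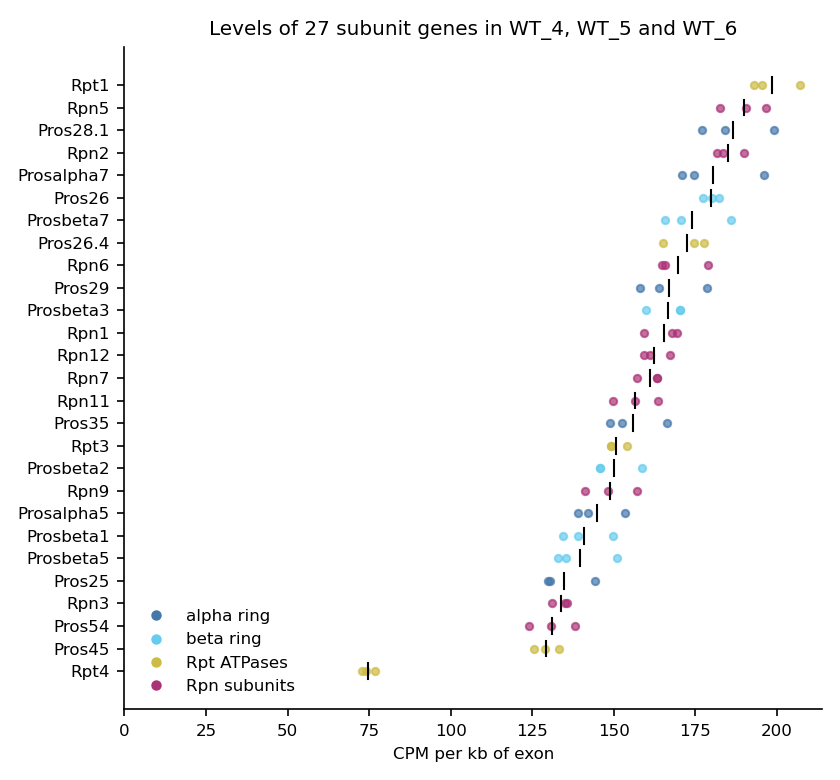
Level per length (CPM per kb of exon, axis from 0) of the 27 first copies with counts in WT_4, WT_5 and WT_6 (points) with their mean (line), coloured by structural group. Most genes overlap their neighbours, and Rpt4 at 74.7 CPM per kb is separate from the rest.

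Prosalpha1 was listed with 0 counts in all 17 libraries. CG30382, now named Prosalpha1R, was also at 0 throughout. Only reads with a single matching position had been kept by the authors, so the level of genes with a near-identical copy is uncertain, and these zeros say nothing about expression of this alpha subunit.

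The second copies were nearly silent. Of the 13, 11 stayed below 1 CPM in every library, with 4 to 80 counts each over all 17 libraries and no more than 21 in any one. Pros28.1A gave the highest of these, with 21 counts in WT_4 and 13 in WT_6, and no more than 8 in the other 15 libraries. The summed level of 13 testis genes was between 23.7 and 28.1 CPM in the second round. Rpt3R and Rpt6R were the exceptions. Rpt3R had 9.27, 10.8 and 9.20 CPM in WT_4 to WT_6, 8.61, 12.7 and 8.52 CPM in C24_5 to C24_7, and 8.58, 8.33 and 8.66 CPM in X7/C24_1 to X7/C24_3. Rpt6R had 5.21, 5.15 and 4.19 CPM in the WT libraries, 7.02, 6.40 and 5.12 CPM in C24 and 4.44, 3.85 and 4.24 CPM in X7/C24. The C24 values of Rpt6R overlapped those of WT and lay above those of X7/C24.

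To ask whether the neuronal hairpin alone changed these genes, C24 was compared with WT in the second round. The filter on low counts left 29 of the 41 members, which were the 27 first copies with counts together with Rpt3R and Rpt6R. The 12 not tested were Prosalpha1 and the 11 second copies below 1 CPM. None of the 29 was called at an adjusted p of 0.05 (edgeR quasi-likelihood test, adjusted over 9394 genes), none had an unadjusted p under 0.05, and DESeq2 and limma-voom called 0 as well. In this comparison 0.394% of all genes tested were called, 0.16% as higher and 0.234% as lower. No member had groups that did not overlap, against 13.8% of all genes. The members' median log2 fold change was 0.04, and that of all genes -0.00.

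Apart from Rpt6R the fold changes ran from -0.04 to 0.13. Rpt6R had the largest rise in value, 0.35 ± 0.17 (SE), and did not pass the test (edgeR adjusted p = 0.726). Rpt4 had the lowest value, -0.04 ± 0.08 (edgeR adjusted p = 0.872), with 107, 113 and 109 CPM in WT and 104, 115.4 and 100.3 CPM in C24. Among the catalytic beta genes the values were -0.00 ± 0.09 for Prosbeta1, 0.10 ± 0.10 for Prosbeta2 and 0.12 ± 0.11 for Prosbeta5. In C24_6, 25 of the 27 first copies lay above their mean over the second round, and without this library the members' median was -0.03. On simulated data of this comparison the test recovered 44.0% of genes changed 1.5-fold and 82.5% of those changed 2-fold. The changed genes were drawn from all genes tested, at any level, so these rates are not those of the members. Among the 27 first copies the SE of the log2 fold change ran from 0.07 (Rpn1) to 0.11 (Prosbeta3). How small a change could be detected in the members was not tested.

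X7/C24 was then compared with WT, from which it differs by the hairpin, the deletion and the round. Here 9 of the 29 members tested were lower and 0 were higher (edgeR quasi-likelihood test, adjusted over 9657 genes), with fold changes that ran from -0.32 to -0.19 on the log2 scale. Of all genes tested, 42.3% were called in this comparison, 21.2% as lower and 21.2% as higher, so the 9 lower members (31.0%) stood against a background in which a large part of the table differed. No member had an unadjusted p under 0.05 in the upward direction. The members' median log2 fold change was -0.06 and that of all genes -0.00. When library 4 of X7/C24 was included, 0 members were called and the median was 0.06, so the result rests on leaving out that library.

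**Figure D3:**
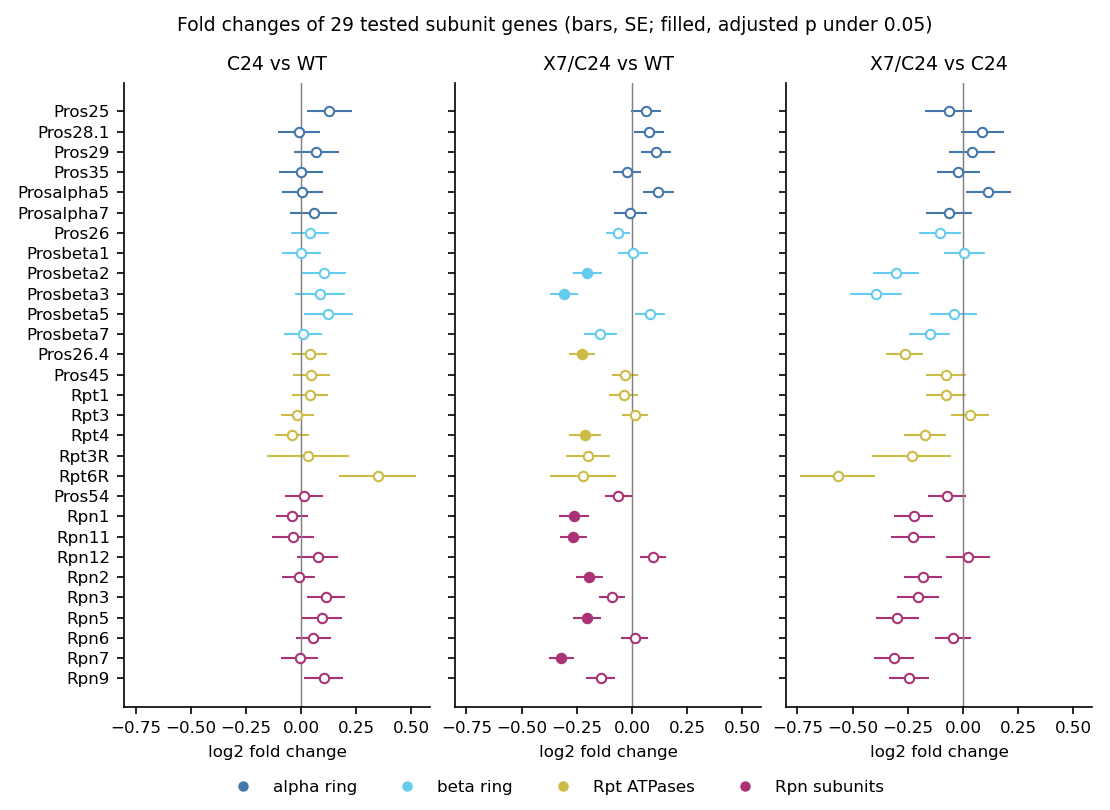
Log2 fold change (x axis) with SE of the 29 tested subunit genes in the 3 comparisons, ordered and coloured by structural group. Filled points have an adjusted p under 0.05 and occur only in X7/C24 against WT, where the 9 of them lie between -0.32 and -0.19 and none is an alpha subunit. Of all genes tested in that comparison, 21.2% were called lower.

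By structure, the lower genes were 0 of 6 in the alpha ring, 2 of 6 in the beta ring, 2 of 7 among the Rpt ATPases and 5 of 10 among the Rpn subunits. The alpha ring genes had a median of 0.07 and ran from -0.02 to 0.12, while the Rpn genes had a median of -0.17 and ran from -0.32 to 0.10. Of all genes tested, 21.2% were called lower. The groups hold only 6 to 10 genes each and were not tested against that share or against each other.

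Of the lid, Rpn7 had the smallest p-value. It was measured at 227.3, 227.4 and 219 CPM in WT_4 to WT_6, at 218, 246 and 208 CPM in C24_5 to C24_7 and at 193, 170 and 180 CPM in X7/C24_1 to X7/C24_3. Every X7/C24 library was below every library of the other 2 groups. Against WT the log2 fold change was -0.32 ± 0.06 (edgeR adjusted p = 0.0031), and the level fell by 19.9%. In X7/C24_4, which was not part of the test, it was 251 CPM.

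Rpn11, the deubiquitinating enzyme of the lid, was at 189, 198 and 181 CPM in WT, 186, 205 and 164 CPM in C24 and 170.4, 152.4 and 152.4 CPM in X7/C24. The WT and X7/C24 values did not overlap, while C24_7 lay among the X7/C24 values. Its log2 fold change against WT was -0.27 ± 0.06 (edgeR adjusted p = 0.010). Rpn5, a lid scaffold subunit, had 362, 373 and 347 CPM in WT, 388, 421 and 349 CPM in C24 and 333, 295 and 316 CPM in X7/C24 and a log2 fold change of -0.20 ± 0.06 (edgeR adjusted p = 0.029).

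In the base, the 2 largest subunits were lower. Rpn1, which binds ubiquitin shuttle proteins, had a log2 fold change of -0.26 ± 0.07 (edgeR adjusted p = 0.015), and Rpn2, its counterpart in the base, had -0.19 ± 0.06 (edgeR adjusted p = 0.033). The ATPase Pros26.4 (Rpt2) was at 284, 289 and 268 CPM in WT, 283, 310 and 272 CPM in C24 and 254, 229.7 and 238 CPM in X7/C24. All X7/C24 values were below the lowest of WT and C24, and the log2 fold change against WT was -0.23 ± 0.06 (edgeR adjusted p = 0.015). Rpt4 was called with -0.21 ± 0.07 (edgeR adjusted p = 0.041), from 109 ± 2.95 CPM in WT to 94.9 ± 9.72 CPM in X7/C24 (SD, n = 3).

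Of the beta ring, Prosbeta3 was at 155.6, 155.6 and 146 CPM in WT, 154, 190 and 143 CPM in C24 and 133, 114 and 124 CPM in X7/C24. The groups X7/C24 and WT did not overlap, and the log2 fold change was -0.31 ± 0.06 (edgeR adjusted p = 0.0059). Prosbeta2, with the trypsin-like site, had -0.20 ± 0.07 (edgeR adjusted p = 0.038), whereas the other proteolytic subunits did not pass the test, with 0.00 ± 0.07 for Prosbeta1 and 0.08 ± 0.07 for Prosbeta5. Prosalpha5 had the largest positive value of all members, 0.12 ± 0.07 (edgeR adjusted p = 0.200), with 134, 145 and 131 CPM in WT and 164, 141 and 144 CPM in X7/C24, which overlapped.

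**Figure D4:**
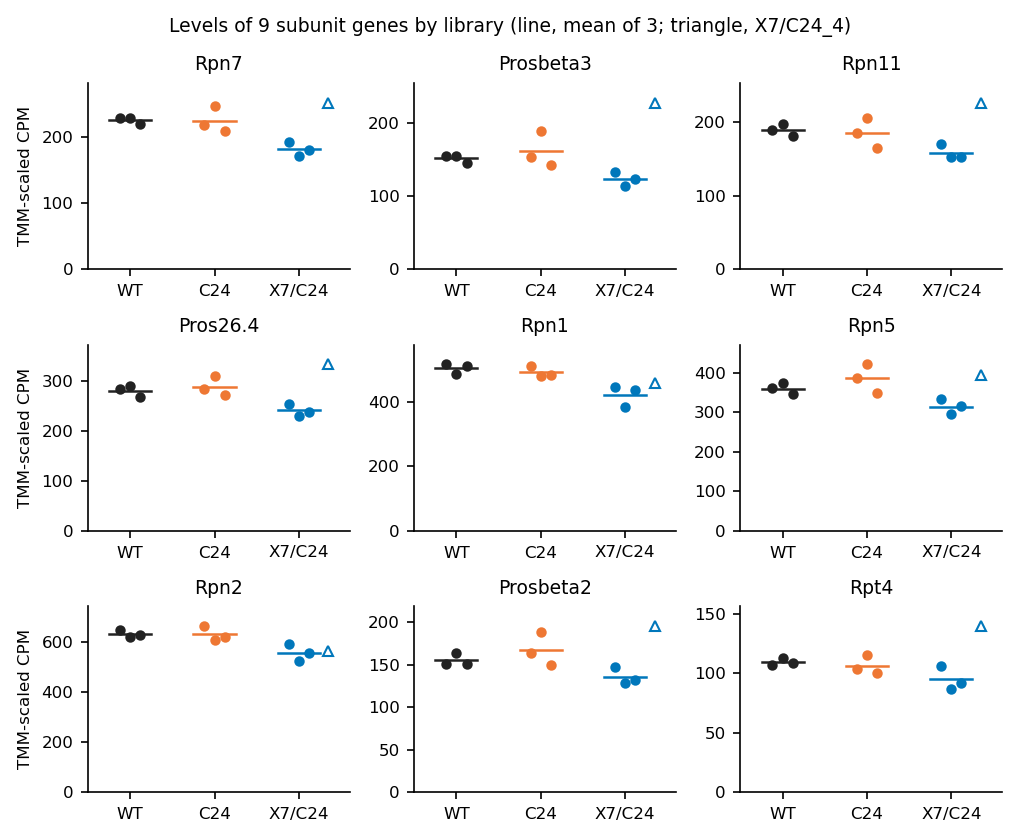
TMM-scaled CPM (axis from 0) of the 9 subunit genes called lower in X7/C24 against WT, in the 3 libraries of each genotype that entered the tests, with their mean (line), and in X7/C24_4 (triangle). The X7/C24 points lie below the WT points in every panel, and the triangle lies above all of them in every panel except that of Rpn2, where it is at 563 CPM.

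Over the 29 members, 10 did not overlap between the 3 X7/C24 and 3 WT libraries, against 53.5% of all genes tested. These were the 9 called members and Rpt3R. Several lists of cell type markers differed too between X7/C24_1 to X7/C24_3 and WT. The summed level of 6 hemocyte genes was 148 to 292 CPM against 45.0 to 63.6 CPM in WT, that of 6 ring gland genes 765 to 952 CPM against 316 to 371 CPM, that of 12 neuronal genes 8677 to 9465 CPM against 7605 to 7850 CPM and that of 6 neuroblast genes 634 to 678 CPM against 782 to 787 CPM. The summed level of 9 glial genes was 1237 to 1427 CPM against 1558 to 1590.1 CPM, that of 10 imaginal disc genes 1054 to 1075 CPM against 991 to 1047 CPM, and that of 9 muscle genes 107 to 142 CPM against 75.1 to 99.9 CPM. The calls in these lists are to be read against all genes tested, of which 21.2% were called higher and 21.2% lower. All 6 hemocyte and all 6 ring gland genes were called higher. So were 4 of 12 neuronal, 5 of 10 imaginal disc and 2 of 9 muscle genes, the last near the share over all genes. Of the 6 neuroblast genes 5 were called lower and 1 higher, and of the 9 glial genes 3 were called lower and 0 higher. The summed levels of the fat body, midgut, salivary gland and testis lists overlapped between the groups. In X7/C24_4 the hemocyte genes were at 38.0 CPM, the ring gland genes at 318 CPM and the neuronal genes at 4621 CPM. Its neuroblast genes were at 720 CPM, its glial genes at 1704 CPM, its imaginal disc genes at 728 CPM and its muscle genes at 42.9 CPM. The part of these cells in the lower levels of the subunit genes was not tested.

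Rpn7, Prosbeta3 and Rpn11 were called in 16 of 17 alternatives, and the exception was the inclusion of X7/C24_4. Pros26.4 and Rpn1 were called in 15 of 17 and the other 4 in 8 to 11. All 9 kept a negative value in each of the 17 alternatives. The number called was 3 without WT_4, and 5 without either X7/C24_2 or X7/C24_3. With total counts in place of TMM scaling 10 members were lower, and the calls over all genes were 38.2% higher ones instead of 50.0%.

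X7/C24 was also compared with C24, from which it differs by the deletion and the round. No member was called (edgeR quasi-likelihood test, adjusted over 9454 genes), although 13.5% of all genes were, 7.59% as higher and 5.94% as lower. At an unadjusted p under 0.05 there were 8 members, all of them in the downward direction. The share of all genes below that p was not computed. DESeq2 called 2, Prosbeta3 and Rpn7, and limma-voom 0. The members' median log2 fold change was -0.10 and that of all genes 0.01, and 9 members did not overlap between the groups, against 37.5% of all genes. With total counts the share of calls over all genes that were higher was 44.8% instead of 56.1%.

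Rpt6R had the largest value in this comparison, -0.57 ± 0.17 (edgeR adjusted p = 0.065), followed by Prosbeta3 with -0.39 ± 0.12 (edgeR adjusted p = 0.067) and Rpn7 with -0.31 ± 0.09 (edgeR adjusted p = 0.062). Prosalpha5 was again the highest, with 0.11 ± 0.10 (edgeR adjusted p = 0.486). Without C24_6, which stood above the other C24 libraries, 5 members were called lower, namely Rpn7, Prosbeta3, Pros26.4, Rpn1 and Rpn5. In that fit 2707 genes were called in all, against 1280 with C24_6 kept in. Without C24_7 there were 2 members, Rpt6R and Prosbeta3, and the total of genes called in that fit is given at the end. This comparison shares its X7/C24 libraries with the one against WT and its C24 libraries with that of C24 against WT, so the 3 sets of values are not independent.

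Rpn12 and Pros26 lie close to Smn on chromosome 3L. The study does not give the ends of the deletion carried by X7/C24, so whether it covers either gene is not known. In BDGP6, Smn spans 16580398 to 16581547, Rpn12 spans 16583028 to 16584022, which is 1481 bp away, and Pros26 spans 16609400 to 16610418, which is 27853 bp away. These 2 genes were chosen for their position, after the annotation had been read. Rpn12, of the lid, was at 160.3, 166 and 158 CPM in WT, 171, 189 and 152 CPM in C24 and 186, 164 and 171 CPM in X7/C24. Its X7/C24 libraries overlapped those of WT and the log2 fold change was 0.10 ± 0.06 (edgeR adjusted p = 0.225). Pros26 was at 169.9, 172 and 168 CPM in WT, 177, 191 and 157 CPM in C24 and 173, 153 and 164 CPM in X7/C24, with a log2 fold change of -0.06 ± 0.06 (edgeR adjusted p = 0.394). Neither was called. Smn itself fell by 55.1% in this comparison, which differs by the hairpin as well as by the deletion.

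Of the 4 subunits named above as outside the rule, 2 were lower, where 21.2% of all genes were called lower. Mov34, which encodes Rpn8, had a log2 fold change of -0.22 ± 0.06 in X7/C24 against WT (edgeR adjusted p = 0.021), and Tbp-1, which encodes the ATPase Rpt5, had -0.20 ± 0.06 (edgeR adjusted p = 0.033). CG17331 (Prosbeta4) and CG13349 (Rpn13) did not pass the test, with 0.09 ± 0.08 and -0.00 ± 0.06. These 4 were added after the table had been seen. CG13779, which was listed with the lid subunit Sem1 among the bound proteins below, was not called, with -0.03 ± 0.11 (edgeR adjusted p = 0.835).

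The lists of genes that act with the proteasome are to be read against all genes tested, of which 0.394% were called in C24 against WT, and 21.2% were called higher and 21.2% lower in X7/C24 against WT. None of the 11 activators, assembly factors and bound proteins passed in C24 against WT, while 0 were higher and 4 lower in X7/C24 against WT. Besides Mov34 these were CG8858 (-0.31 ± 0.07), CG5514 (-0.30 ± 0.07), which the current annotation names BOD1 and whose place on the list is doubtful, and CG12321 (-0.26 ± 0.07), with edgeR adjusted p-values from 0.0074 to 0.021. REG, the activator that opens the core without ATP, was at 0.02 ± 0.07 and was not called. Among 7 transcription factors and their regulators, cnc, which drives proteasome genes when proteasome activity is low, had 0.11 ± 0.06 (edgeR adjusted p = 0.154). Its partner maf-S rose, with 1.24 ± 0.09 (edgeR adjusted p = 8.14e-05), whereas its inhibitor Keap1 (-0.22 ± 0.07) and Dref (-0.19 ± 0.05) fell.

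Among 18 ubiquitin, deubiquitinating and shuttle genes 6 were higher and 4 lower in X7/C24 against WT, where 42.3% of all genes were called. The 4 with the smallest p-values were ben, a ubiquitin-conjugating enzyme (0.67 ± 0.14), RpL40, which encodes ubiquitin fused to a ribosomal protein (0.64 ± 0.10), CG12082, the deubiquitinase Usp5 (-0.32 ± 0.05), and Uch (0.25 ± 0.05), with edgeR adjusted p-values from 0.0019 to 0.0071. Of the 13 chaperones tested, Hsp23 (0.56 ± 0.12) and Hsp27 (0.37 ± 0.10) were higher, and Hsp70Bc (-1.79 ± 0.40), which has near-identical copies and is therefore uncertain, was lower, with edgeR adjusted p-values from 0.0067 to 0.020. For comparison, 55 of 87 cytoplasmic ribosomal protein genes were higher and 3 lower in the same comparison, with a median of 0.42, and of 71 mitochondrial ribosomal protein genes 10 were higher and 17 lower, with a median of -0.01. None of these lists had a call in C24 against WT.

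The pilot libraries gave the largest differences. In WT_2 and C24_1 the share of counts on the subunit genes was 2.11 and 2.23%, in WT_1 it was 1.13%, and in the other 4 pilot libraries it lay between 0.753 and 0.893%. Relative to the second-round mean, 23 of 27 first copies were more than 2-fold higher in WT_2 and 23 of 27 in C24_1. The share of all genes that rose as much in these libraries was not computed. Whether these counts are particular to the subunit genes is therefore not known. The members' median was 2.36 in WT_2 and 2.45 in C24_1 on the log2 scale, and 1.98 and 2.04 with total counts in place of TMM scaling.

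The difference tended to be larger in shorter genes, with exceptions. Prosbeta5, with 1139 bp of exon, had the largest difference, 3.46 in WT_2 and 3.68 in C24_1, from 154, 172 and 152 CPM in WT_4 to WT_6 to 1833 and 2137 CPM. Pros28.1, at 1176 bp, was at 2233 and 2397 CPM there, against 216, 234 and 208 CPM in WT_4 to WT_6. At the other end Rpn2, with 3412 bp, had -0.04 in WT_2 and -0.37 in C24_1, and Rpn1, with 3041 bp, had 0.32 and -0.00. Rpn5, with 1897 bp, was likewise little different, at 414 and 389.7 CPM. Rpn3, of similar length (1831 bp), had 1.57 in WT_2 and 1.61 in C24_1. Pros26.4, with 1625 bp, had 2.56 and 2.71, more than the shorter Prosbeta3 (914 bp) with 1.97 and 2.00. Across the 27 genes Pearson's r between the log2 difference and log2 exon length was -0.79 in WT_2, -0.79 in C24_1 and -0.88 in WT_1, as a description over genes that share a library. It was -0.69, -0.70 and -0.60 across the 7243 genes that had 10 counts or more in each library, so the relation was not confined to the subunit genes. By rank (Spearman) the correlation across the 27 genes was -0.65 in WT_2, -0.61 in C24_1 and -0.81 in WT_1.

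The same direction was seen at a smaller size in the other 4 pilot libraries, X7/C24_4 and C24_6. In WT_3, C24_3, C24_2 and C24_4 the median difference of the 27 genes was 0.49, 0.46, 0.26 and 0.25, and r was -0.90, -0.86, -0.75 and -0.85. In X7/C24_4 the median difference of the 27 genes was 0.37 and r was -0.90, with 0.74 for Prosalpha5 and -0.16 for Rpn2. In C24_6 the median was 0.15 and r -0.77. In X7/C24_1 to X7/C24_3, which entered the tests, r across the members ran from -0.44 to -0.30 and across all genes from -0.04 to 0.08. When the dependence on length was fitted and subtracted library by library, the same 9 members were called lower in X7/C24 against WT. Against C24 7 were called lower. The total of genes called against C24 also rose with this fit, from 1280, and is given at the end. The summed neuronal list was 4796 to 6104 CPM in the 4 pilot libraries, 4621 CPM in X7/C24_4 and 6058 CPM in C24_6. Besides muscle, other lists were high in WT_1, WT_2 and C24_1. Fat body genes were at 7498, 3589 and 5154 CPM there, against 384 to 578 CPM in the second round, and midgut genes at 7.42, 327 and 9050.5 CPM, against 2.43 to 53.4 CPM. In WT_1 the midgut list lay within the range of the second round. Salivary gland genes were at 152, 311 and 1625 CPM in WT_1, WT_2 and C24_1, against 9.64 to 40.6 CPM. Ring gland genes were at 867, 1360 and 1365 CPM, against 316 to 393 CPM, and hemocyte genes at 376, 325 and 201 CPM, against 45.0 to 70.1 CPM. The glial, neuroblast, imaginal disc and testis lists were lower in these libraries than in the second round. These libraries also differed in preparation, by the study's account. WT_2 and C24_1 had the least cDNA and kept the smallest share of aligned reads once duplicates were removed. Every pilot library kept a smaller share than the second round. X7/C24_4 was the lowest of its round in both, and C24_6 the lowest of the second round in both. The part of other tissues, cDNA input and duplicates in the differences was not tested.

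**Figure D5:**
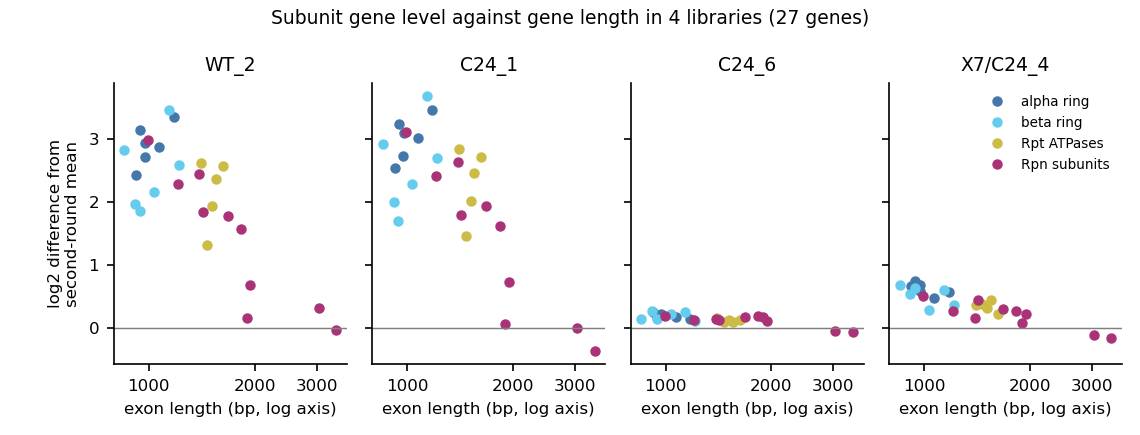
Log2 difference of each of the 27 first copies from its mean in the second round (y axis) against exon length (bp, log axis) in 4 libraries, coloured by structural group. In WT_2 and C24_1 the short alpha and beta genes lie at 1.69 or more and Rpn1 and Rpn2 at or below 0.32, and in C24_6 and X7/C24_4 the same slope is seen at a smaller size.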

How the data were processed

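Poly-A selected, unstranded paired-end mRNA-seq libraries were made from pooled larval CNS. The authors filtered reads by quality, aligned them to BDGP5 with BWA keeping single matching positions, removed duplicates, and counted read pairs per gene of FlyBase annotation 5.46 with HTSeq in union mode. The deposited values are whole-number counts without normalization. Their fold changes and p-values were not used.

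Genotype was taken from the sample titles, and the round and kit set from the study. The genotype labels disagree with the titles, in that the name after the driver counts upward from C24 over successive C24 and X7/C24 samples. Counts were tested in R 4.3.3 with the edgeR 4.0.16 quasi-likelihood test, TMM scaling, filterByExpr and Benjamini-Hochberg adjustment over all genes tested, at 0.05. It compared WT_4 to WT_6, C24_5 to C24_7 and X7/C24_1 to X7/C24_3 pairwise without covariates. DESeq2 1.42.0 and limma 3.58.1 (voom) served as alternatives, besides other scalings, filters, covariates and samples. The test was checked on simulated data with 200 genes changed 1.5-fold or 2-fold. The false share of the calls was 4.35 and 4.62% in C24 against WT. It was above the threshold of 0.05 in X7/C24 against WT (8.33 and 6.95%) and in X7/C24 against C24 (7.14 and 6.21%). The 200 changed genes were split evenly between up and down. In the data 42.3% of all genes were called in X7/C24 against WT, so these simulated rates are not those of the actual calls. Displayed CPM were scaled by TMM against WT_4, and log2 differences of single libraries used a pseudocount of 0.25 CPM. P-values measure the spread between pools.

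Exon lengths, positions and current symbols came from BDGP6 for 40 of the 41 members (Pros28.1A was not matched) and for 94.8% of all genes, and BDGP6 lengths may differ from the models counted. The members and lists were chosen with earlier results of these data known. Values in every library were given for up to 4 called members per comparison and direction by p, the largest change in each direction, the highest and lowest member per length of each structural group, and second copies above 1 CPM. Of other lists, up to 4 called genes per list and comparison were named. The values of Rpn5, Rpn12 and Pros26 were also given. Rpn1, Rpn2, Prosbeta1, Prosbeta2, REG, cnc, Tbp-1, CG17331, CG13349 and CG13779 were named after their values were seen.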

Additional observations from a re-analysis of the deposited data

Results flagged for a closer look

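Of the 54 groups of libraries examined, 37 values stood apart from the rest of their genotype by Dixon's criterion, where chance flags about 1 group in 20. All but 5 came from WT_2 and C24_1, the pilot libraries with low neuronal markers. The share of counts on the subunit genes was 2.11% in WT_2, with 1.13% as the next highest WT library, and 2.23% in C24_1, with 0.859% as the next.

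Among the core particle genes, WT_2 and C24_1 were the highest of their genotype for Pros28.1 (2233 and 2397 CPM), Prosalpha5 (1203 and 1286 CPM), Pros25 (701 and 753 CPM), Prosbeta5 (1833 and 2137 CPM), Pros26 (624 and 557 CPM) and Prosbeta3 (617 and 630.0 CPM). Among the ATPases they were the highest for Pros26.4 (1680.1 and 1862 CPM), Rpt1 (1165 and 1227 CPM), Rpt4 (268 and 297 CPM) and Rpt3R (58.8 and 64.0 CPM). Among the Rpn subunits they were the highest for Rpn7 (1212 and 1393 CPM), Rpn11 (909 and 997 CPM), Rpn12 (1310.2 and 1426 CPM) and Pros54 (667 and 646 CPM). Smn was likewise at 538 and 509.9 CPM in them. How many of all genes were highest in these libraries was not counted.

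X7/C24_4 was the highest X7/C24 library for Prosbeta3 (228 CPM, next 133 CPM), Rpt3R (11.6 CPM, next 8.66 CPM), Rpt6R (7.35 CPM, next 4.44 CPM) and Smn (44.1 CPM, next 29.9 CPM). WT_3 was the highest WT library for Rpt6R (7.55 CPM, next 5.37 CPM).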

How the results depend on the processing

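In C24 against WT no subunit gene was called under any alternative run. The 37 genes called became 112 with DESeq2, 10 with at least 10 counts in every library, 81 in a joint fit of 9 libraries, 11 with a kit set term, 129 with the length trend taken out, 214 in 2 against 2 libraries, 1 over all 13 libraries with a round term (members' median -0.082), and 5 to 27 with a library left out (5 without WT_4, 6 without WT_5 or WT_6, 7 without C24_5 and 13 without C24_7, median -0.03 to 0.09). In X7/C24 against WT the 9 members called became 5 in the joint fit, 5 with the kit set term, 0 with X7/C24_4 included (median 0.056, with 761 genes called instead of 4087) and 3 to 10 with a library left out (3 without WT_4, 5 without X7/C24_2 or X7/C24_3, 2846 to 4792 genes, median -0.12 to -0.04). In X7/C24 against C24 the 1280 genes and 0 members became 2042 and 6 in the joint fit, 752 genes with the kit set term, 2605 and 7 with the length trend taken out, 33 genes with X7/C24_4 included (median 0.012), 2 members with DESeq2, and 461 to 2707 genes and 0 to 5 members with a library left out (2707 and 5 without C24_6, 912 and 2 without C24_7, 729 genes without C24_5, and 522, 535 and 461 genes without X7/C24_1, X7/C24_2 and X7/C24_3, median -0.18 to -0.02). The causes were not tested. With the 100 most abundant genes of each library removed, the share of counts was 0.735% in WT, 0.769% in C24 and 0.666% in X7/C24, and with a library left out it was 0.608 to 0.632%, 0.601 to 0.684% and 0.541 to 0.572%.

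Replicate numbers 5 and 6 occur in WT and C24 of the second round, but the labels give no shared origin, and the correlations of same-numbered libraries were -0.15 and -0.21. With the replicate number as a block 14 genes and 0 subunit genes were called. The X7/C24 libraries share no number with the others that entered the tests. At these depths counting error is small for first copies, and it limits the second copies, which had no more than 80 counts over all libraries apart from Rpt3R and Rpt6R.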
